A study of Mus musculus with 57 samples.

Results

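The D6 progeny of cells that had been sorted at D2 as Sox1+FOXA2+ were compared, over all genes, with the D6 progeny of cells sorted at D2 as Sox1+FOXA2-. This comparison takes 6 of the 57 libraries of the series, 3 biological replicates of each progeny, chosen by their sample titles alone. All cells came from a single clone of a mouse embryonic stem cell (ESC) line in which EGFP replaces Sox1 at an endogenous allele and mCherry is fused to the end of the FOXA2 protein. ESCs were differentiated in N2B27 medium with 1 uM retinoic acid (RA) for 2 days, when 50000 cells of each population were sorted and replated. The replated cells of both groups then stayed in RA for 4 further days in a basal medium with 10% serum, and about 500 cells per library were taken without another sort. The group names therefore give what the founding cells were at D2, and not what the progeny were at D6. Further sets of libraries are used below for the same genes. These are the D6 progeny of Sox1-FOXA2+ cells, the D4 progeny of both groups, and Sox1+FOXA2+ and Sox1+FOXA2- cells sorted directly at D6 from N2B27 with RA.

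SOX1 is a transcription factor of the early neural plate, and FOXA2 is a pioneer transcription factor of endoderm, node, notochord and floor plate. In ESC cultures RA can lead both to neural progenitors and to extraembryonic-like endoderm, whose cells express the transcription factors GATA4, GATA6, SOX7 and SOX17, secrete laminin and type IV collagen as a basement membrane, and take up proteins from their surroundings through the receptors megalin (Lrp2) and cubilin (Cubn). A cell that expresses both reporters could in principle give rise to either kind of progeny, and the comparison asks in which genes its descendants differ from those of a cell that expresses Sox1 alone.

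The 6 libraries held between 10474804 and 57493976 counts on genes and between 18379 and 24267 genes with at least 1 count. The shallowest was Sox1+FOXA2- replicate 3, and the one with the fewest genes was Sox1+FOXA2+ replicate 1. Mitochondrial genes took 11.9% to 14.9% of the counts in Sox1+FOXA2+ progeny and 7.75% to 12.1% in Sox1+FOXA2- progeny. The part of this difference in the results below was not tested. Sox1 itself had 0 counts in every library, as did each of the 822 protein-coding genes that lie wholly inside a gene of the other strand and each of the 465 inside a gene of the same strand, so that Sox1 gives no check of the labels. Levels below are normalized counts, the counts divided by a size factor for each library, and fold changes and tests come from edgeR (quasi-likelihood fits), and p-values are adjusted by Benjamini and Hochberg's method over all genes tested. A gene is called at an adjusted p under 0.05.

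In all, 38 of 21069 genes were called (0.18%), of which 34 were higher (0.161%) and 4 were lower (0.019%) in Sox1+FOXA2+ progeny. The genes called higher included the endoderm transcription factors Gata4 and Foxa2 and the endocytic receptor gene Lrp2. Also called higher were the RA-degrading enzymes Cyp26a1 and Cyp26c1, and the transporter genes Slc13a5 and Atp1b1. The genes called lower were Cdkn1c, Lbh, Myl9 and F2r. These are differences between groups at D6 and not changes over time. The fitted log2 fold changes of the 34 ran from 1.27 to 10.01 with a median of 2.34, and those of the 4 from -2.35 to -1.38, while the median of all genes tested was 0.04. In none of the 38 did the 3 libraries of one group overlap with the 3 of the other. The same held for 16.5% of all genes tested. The 38 were called on these same libraries, so that their lack of overlap adds no support. Without adjustment, 1108 genes were higher (5.26%) and 868 lower (4.12%) at a p under 0.05.

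The calls depended on single libraries. Of the 38 genes, 10 were called in each of the 6 fits that left out 1 library, namely Cd9, Cyp26c1, Slc13a5, Klb, Atp1b1, Trpm6, Lrp2, Slc44a3, Me1 and Gata4. Leaving out replicate 1, 2 or 3 of Sox1+FOXA2+ gave 40, 18 and 105 called genes, and leaving out replicate 1, 2 or 3 of Sox1+FOXA2- gave 20, 15 and 18. All 38 genes kept their direction in each of these fits. Replicate numbers were taken to pair the libraries, by their correlations. With the number as a block 44 genes were called (33 higher, 11 lower), 29 of them among the 38. With all 57 libraries in 1 fit, 0 genes were called (743 at an unadjusted p under 0.05).

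**Figure D1:**
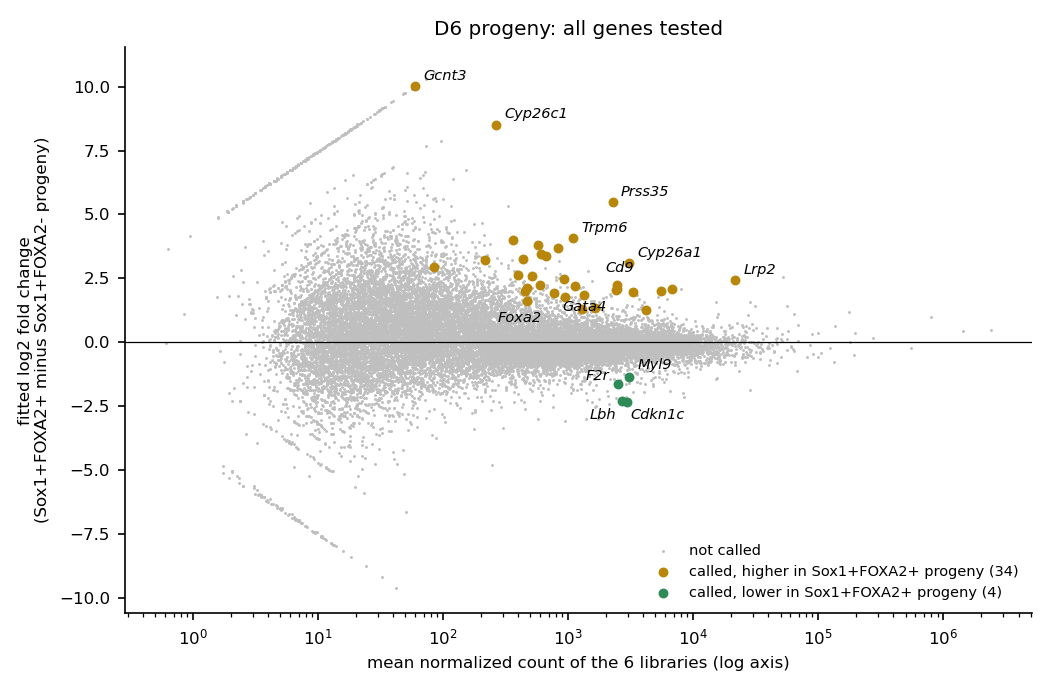
Fitted log2 fold change of every gene tested, Sox1+FOXA2+ minus Sox1+FOXA2- progeny at D6 (vertical axis), against the mean normalized count of the 6 libraries (horizontal log axis). The 34 genes called higher (ochre) and the 4 called lower (green) stand at the edge of or beyond the cloud of genes not called (grey), with Gcnt3 and Cyp26c1 at the top. The slanted lines hold genes with few or no counts in one group, whose fold change depends on the prior count.

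Among endoderm transcription factors, 2 of 15 tested were called higher and none lower. Of the 15, 11 had a positive log2 fold change, and their median was 0.97. Of all genes tested, 52.1% were positive, the share to set beside this and the later counts of positive members. Gata4 (chromosome 14, 63198922 to 63271692, minus strand, GRCm38) encodes a zinc finger factor of endoderm and heart. Its normalized counts were 5419, 3416 and 3011 in the 3 libraries of Sox1+FOXA2+ progeny and 1133, 939 and 676 in those of Sox1+FOXA2- progeny. The lowest Sox1+FOXA2+ library thus lay well above the highest Sox1+FOXA2- library, with a log2 fold change of 2.04 (SE 0.30, adjusted p = 0.0111).

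Foxa2 (chromosome 2, 148042877 to 148046969, minus strand) is the gene whose mCherry fusion defined the gate at D2. At the sort it had 1582, 1956 and 1067 normalized counts in Sox1+FOXA2+ cells and 308, 324 and 0 in Sox1+FOXA2- cells, which is the gate itself and no finding. In the progeny, 4 days after the sort, it stood at 524, 889 and 728 against 205, 205 and 264. The groups did not overlap, and the log2 fold change was 1.62 (SE 0.28, adjusted p = 0.0234). Without Sox1+FOXA2- replicate 1 the adjusted p was 0.161. In a two-sided exact permutation test on single genes, Foxa2 and Gata4 each gave p = 0.1, the smallest that 3 libraries against 3 allow.

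Sox7, Gata6 and Sox17 were not called. Sox7 had 2686, 1415 and 1377 normalized counts in Sox1+FOXA2+ progeny against 924, 508 and 437, with no overlap and a log2 fold change of 1.48 (SE 0.53, adjusted p = 0.432). Gata6 overlapped between the groups, at 3860, 3641 and 2638 against 2110, 2975 and 2152 (log2 fold change 0.42, SE 0.31, adjusted p = 0.740). Sox17 overlapped widely, at 446, 1310 and 1237 against 1147, 684 and 443 (0.33, SE 0.40, adjusted p = 0.883). With Gata4 and Foxa2 these are 5 of the endoderm markers that the study names, and all of them had positive log2 fold changes with a median of 1.48. Further markers it names are Lamb1, Dab2 and Fst, whose log2 fold changes were 1.57, 0.18 and 1.36 without a call. Genes chosen on these samples are not independent evidence of a direction.

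**Figure D2:**
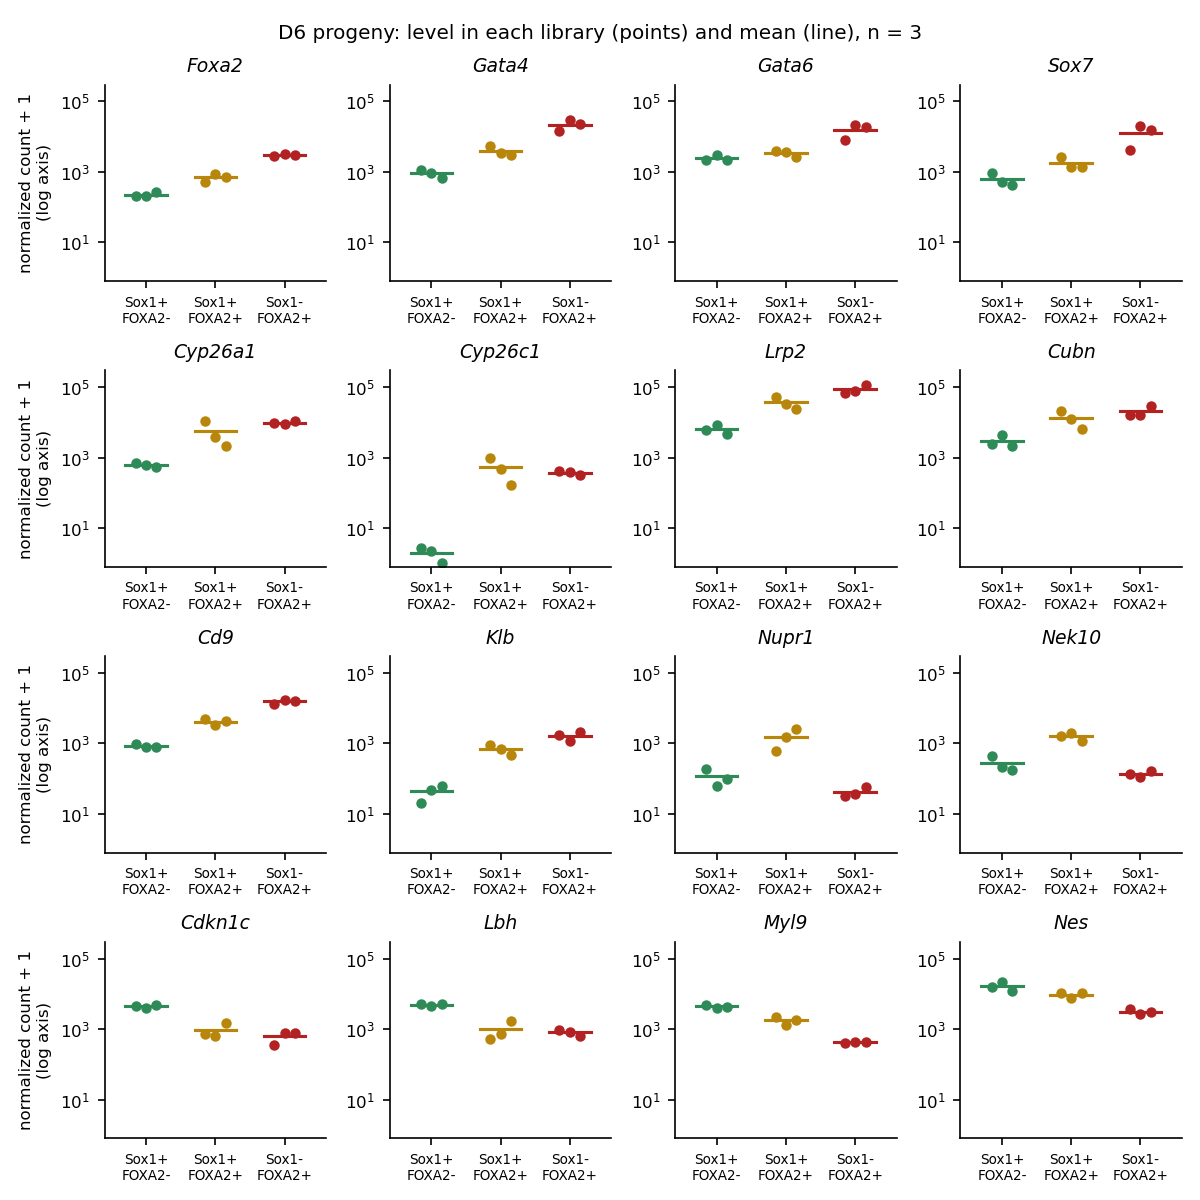
Normalized count plus 1 (log axis) of 16 genes in each D6 progeny library (points) with the mean of 3 (line), for Sox1+FOXA2- (green), Sox1+FOXA2+ (ochre) and Sox1-FOXA2+ (red) progeny. Gata4, Foxa2, Lrp2, Cd9 and Klb step up from left to right without overlap, Nupr1 and Nek10 are highest in the middle group, and Cdkn1c and Lbh are low in the middle and right groups.

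Both genes of RA breakdown that were called had far higher levels in Sox1+FOXA2+ progeny, with a wide spread between its libraries. Cyp26a1, Cyp26b1 and Cyp26c1 encode cytochrome P450 enzymes that hydroxylate RA and so clear it from the cell, and Cyp26a1 is a classical direct target of the RA receptors. Cyp26c1 (chromosome 19, 37685581 to 37693398, plus strand) had 957, 469 and 169.8 normalized counts in Sox1+FOXA2+ progeny, whereas the 3 Sox1+FOXA2- libraries held 4 counts in all, or 1.75, 1.25 and 0 normalized counts. The ratio of the summed counts was 362, with a 95% exact interval of 141 to 1331 that covers counting error only. The fitted log2 fold change was 8.52 (SE 0.88, adjusted p = 0.000847).

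Cyp26a1 (chromosome 19, 37697798 to 37701536, plus strand) is the next gene downstream, with 4399 bases between them. It had 10754, 3788 and 2184 normalized counts in Sox1+FOXA2+ progeny against 725, 598 and 541 in Sox1+FOXA2- progeny. Both genes were highest in Sox1+FOXA2+ replicate 1 and lowest in replicate 3. The log2 fold change of Cyp26a1 was 3.09 (SE 0.48, adjusted p = 0.0350), with an adjusted p of 0.297 without Sox1+FOXA2- replicate 2.

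The promoter of Cyp26a1 is shown because it carries the sequence through which RA receptors are known to act, a direct repeat of a half-site with a spacer of 5 bases. The window searched was the RefSeq promoter (GRCm38.p6), 250 bases before to 50 after the start of transcription, and a half-site could read AGGTCA or AGTTCA, or else GGGTCA or GGTTCA, on either strand. The repeat was found in Cyp26a1 and in no other of the 28 genes called higher that had a promoter in the table (3.57%), and in 11 of 14293 tested genes (0.077%). It lies at chr19:37697756-37697797, shown on the plus strand with the repeat, which reads on the minus strand, in capitals.
Cyp26a1: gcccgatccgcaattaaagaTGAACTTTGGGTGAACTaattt
A repeat with half-sites 2 bases apart was in 0 of the 28 (0.147% of tested genes). The motif AGATAA, which GATA factors bind, was in 3 of the 28 (10.7%, against 9.84% of tested genes), namely Cyp26c1, Foxa2 and Sgk1, and the motif TGTTTAC, which FOXA factors bind, in 2 of the 28 (7.14%, against 3.42%), namely Nek10 and Ppfibp2. These are matches of letters in a short window, and binding was not measured.

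Of 21 members of the RA response list that were tested, 2 were called higher and 0 lower, and 6 were higher and 1 lower at an unadjusted p under 0.05. In all 13 had a positive and 8 a negative log2 fold change, with a median of 0.23. Cyp26b1 had 2541, 4618 and 455 normalized counts against 494, 326 and 215, which overlap (log2 fold change 2.80, SE 1.07, adjusted p = 0.489). Stra6, the membrane receptor for retinol-binding protein, had a log2 fold change of 1.44 (SE 0.39, adjusted p = 0.239), and Dhrs3, which reduces retinal to retinol, of 1.26 (SE 0.49, adjusted p = 0.470). Crabp2, the binding protein that carries RA to its nuclear receptors, pointed the other way at -1.56 (SE 0.53, adjusted p = 0.363). The receptors Rara, Rarb and Rarg had log2 fold changes of -0.04, 0.58 and 0.23.

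Lrp2 and Lrpap1, both of protein uptake, were called higher in Sox1+FOXA2+ progeny. Lrp2, which encodes megalin, the large endocytic receptor of visceral endoderm, kidney and neuroepithelium, had 52842, 32767 and 24616 normalized counts in Sox1+FOXA2+ progeny against 6234, 8478 and 4661. Its log2 fold change was 2.44 (SE 0.31, adjusted p = 0.00363). Lrpap1, the chaperone that keeps megalin and related receptors free of ligand on their way to the surface, had 13661, 6602 and 6467 against 1791, 2521 and 2017 (2.01, SE 0.30, adjusted p = 0.0113). Cubn, the partner receptor of megalin, had 20360, 12708 and 6418 against 2471, 4245 and 2109. These did not overlap, but the log2 fold change of 2.09 (SE 0.42) was not called (adjusted p = 0.0941), and 23.8% of the exon bases of Cubn lie within another gene, where reads may not have been counted. Dab2, the adaptor that links megalin to clathrin, had 3748, 3306 and 4091 against 2915, 3565 and 2994 (0.18, SE 0.20, adjusted p = 0.874). Lrp2 and Lrpap1 thus differed between the progeny, and a difference in Dab2 was not detectable.

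Genes of the visceral endoderm list other than Lrp2 gave no calls. Of the 16 members of the visceral endoderm list that were tested, Lrp2 was called higher and none lower. In all 11 had a positive and 5 a negative log2 fold change, from -4.17 to 3.37, and the median was 0.36. The log2 fold changes of Ttr, Apoa1 and Amn were 1.03, 0.70 and 0.39 with adjusted p-values over 0.9. The parietal endoderm list counted Cubn, its highest value at 2.09, and left Lama1 to the basement membrane genes. Of its 15 tested members 0 were called, and 10 had a positive and 5 a negative log2 fold change. At an unadjusted p under 0.05, 4 members were higher, Cubn among them, and 1 was lower. The positive ones included Fst, which encodes the activin inhibitor follistatin, at 1.36 (SE 0.38, adjusted p = 0.291), and Thbd, the thrombin receptor thrombomodulin and a defining parietal marker, at 1.60 (SE 0.96, adjusted p = 0.682). The negative ones included Anxa2, the membrane-binding protein annexin A2, at -0.76 (SE 0.27, adjusted p = 0.390), and Tmem88 at -1.56 (SE 1.12, adjusted p = 0.738).

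Of 18 basement membrane genes 0 were called. Their log2 fold changes were positive for 16 and negative for 2 with a median of 0.45, and 7 had an unadjusted p under 0.05 in the positive direction and 0 in the negative one. Lama1, the laminin chain of embryonic basement membranes, had the largest difference, at 137873, 83860 and 47934 normalized counts against 19929, 18816 and 5023 (log2 fold change 2.55, SE 0.56, adjusted p = 0.174). Lamb1 and Lamc1, the other chains of the same laminin, stood at 1.57 (SE 0.43) and 1.42 (SE 0.43), with adjusted p-values of 0.284 and 0.328. Col4a1 had 132159, 75551 and 58058 against 53500, 48434 and 14762 (1.12, SE 0.44, adjusted p = 0.465). Sparc, which encodes a collagen-binding matrix protein, had 79204, 66604 and 58075 against 61870, 52996 and 27401, which overlap. The summed normalized counts of the 18 genes were 397118 to 749380 in Sox1+FOXA2+ progeny and 143809 to 344078 in Sox1+FOXA2- progeny. The median of the list was 0.21 when replicate 3 of Sox1+FOXA2- was left out and 0.73 when its replicate 2 was.

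Cd9, Slc13a5, Trpm6, Klb, Atp1b1, Me1 and Slc44a3 were higher in Sox1+FOXA2+ progeny, and were called in every fit that left out a library. Cd9, which encodes a tetraspanin of the plasma membrane, had the smallest p of all genes, with 4891, 3221 and 4272 normalized counts against 959, 784 and 775 (log2 fold change 2.24, SE 0.23, adjusted p = 0.000847). Slc13a5, the citrate transporter of the plasma membrane, had 1523, 961 and 745 against 109, 64.9 and 36.9 (3.82, SE 0.42, adjusted p = 0.00120). Trpm6, a magnesium channel of transporting epithelia, had 3911, 1311 and 996 against 109, 124 and 123 (4.06, SE 0.45, adjusted p = 0.00180), with the highest value again in Sox1+FOXA2+ replicate 1. Klb encodes beta-Klotho, the co-receptor of the endocrine fibroblast growth factors. Its mean was 683 ± 210.1 against 42.7 ± 21.5 (SD, n = 3).

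Atp1b1, the beta subunit of the sodium pump, had 4236, 5820 and 5944 normalized counts against 1141, 1443 and 1322, a tight pair of groups with a log2 fold change of 1.98 (SE 0.23, adjusted p = 0.00174). Me1, the cytosolic malic enzyme that makes NADPH, had 16416, 9828 and 7043 against 3262, 2353 and 1980 (2.07, SE 0.29, adjusted p = 0.00864). Slc44a3, a transporter of the choline family, had a mean of 892 ± 325 against 144 ± 37.6. Enpp1 and Ank, an enzyme that makes pyrophosphate outside the cell and a membrane protein that passes it out, were both called, with log2 fold changes of 3.45 (SE 0.54) and 2.23 (SE 0.41). For Ank 88.3% of the exon bases lie within another gene, so that its level may be undercounted in all libraries.

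Gcnt3, a glycosyltransferase of mucin-type sugar chains, was at 0 in all 3 Sox1+FOXA2- libraries and had 238, 94.9 and 22.6 normalized counts in Sox1+FOXA2+ progeny. Against the floor of 3 counts over the group the mean is at least 121-fold higher. The call (adjusted p = 0.0429) was lost with the replicate block (adjusted p = 0.0769). Its fitted log2 fold change of 10.01 depends on the prior count. At low levels, Gcnt3 pointed the other way in D4 progeny (-1.07, SE 1.77) and in cells sorted at D6 (-2.89, SE 3.30), without a call. Prss35, a secreted serine protease homologue, had 1713, 5985 and 5634 against 96.3, 117 and 67.6 (5.47, SE 0.70, adjusted p = 0.0191). It was lowest in Sox1+FOXA2+ replicate 1, where Cyp26c1 was highest. The adjusted p of Prss35 was 0.301 without Sox1+FOXA2- replicate 2. Of the 34 genes, 19 had their highest level in Sox1+FOXA2+ replicate 1, 10 in replicate 2 and 5 in replicate 3. With the block, Hkdc1, Car8, Ptprb, Enpp1, Triml2, Ugt2b34 and Gcnt3 among the higher genes and Lbh and F2r among the lower ones were no longer called, at adjusted p-values between 0.0524 and 0.0769.

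Cdkn1c had the smallest p of the 4 genes called lower. Cdkn1c, an imprinted gene that encodes the cell cycle inhibitor p57, had 714, 630.4 and 1465 normalized counts in Sox1+FOXA2+ progeny against 4516, 4028 and 4774. The Sox1+FOXA2- libraries lay close together, and the log2 fold change was -2.29 (SE 0.36, adjusted p = 0.0166), with an adjusted p of 0.101 without Sox1+FOXA2- replicate 1. Of its exon bases 43.3% lie within another gene, where reads may not have been counted. Lbh, a transcriptional cofactor named for limb bud and heart, had 536, 704 and 1741 against 4998, 4597 and 5177 (-2.35, SE 0.39, adjusted p = 0.0234). Myl9, the regulatory light chain of smooth muscle and non-muscle myosin, had 2136, 1302 and 1836 against 4918, 3981 and 4316 (-1.38, SE 0.24, adjusted p = 0.0234). F2r, the thrombin receptor PAR1, had 1602, 1099 and 1145 against 2717, 5272 and 3342 (-1.62, SE 0.29, adjusted p = 0.0341).

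The next genes by p on the lower side were not called. Marcks, an actin-binding substrate of protein kinase C, had 4965, 5540 and 7029 normalized counts against 12542, 12941 and 12008 (log2 fold change -1.15, SE 0.22, adjusted p = 0.0510). Lgals1, galectin 1, and Igfbp2, a binding protein of insulin-like growth factors, had log2 fold changes of -1.36 and -1.39, and Plagl1, an imprinted zinc finger factor, of -1.38, each with an adjusted p of 0.0826. Gucy1a1, a subunit of the nitric oxide receptor guanylate cyclase, had 0, 17.1 and 34 against 495, 429 and 507 (adjusted p = 0.0909), and Nrep had a log2 fold change of -1.10 (adjusted p = 0.0937). In each of these 6 genes the groups did not overlap, as in 16.5% of all genes tested. They were picked by p on the same libraries, so that this adds no support.

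Of 19 smooth muscle and contractile genes, 1 was called lower and 0 higher, 16 had a negative log2 fold change with a median of -0.49, and 7 had an unadjusted p under 0.05 in the negative direction. Acta2, smooth muscle actin, had 14875, 6347 and 16688 normalized counts against 51790, 40374 and 41238 (-1.87, SE 0.48, adjusted p = 0.262). Cnn1, calponin, and Tagln, transgelin, had log2 fold changes of -1.58 (SE 0.35, adjusted p = 0.116) and -2.27 (SE 0.63, adjusted p = 0.263). Cnn2 was at -1.15 (SE 0.24, adjusted p = 0.0923) and was called with the block (adjusted p = 0.0473). Of 19 mesenchyme genes tested, 17 had a negative log2 fold change with a median of -0.79 and 0 were called. Col1a1 had 12489, 7657 and 6127 against 19654, 35821 and 11043, and Fn1, fibronectin, 14131, 13445 and 18233 against 26792, 51215 and 16668, each with overlapping groups. The summed level of the mesenchyme list was 52993 to 59789 in Sox1+FOXA2+ progeny and 57559 to 155361 in Sox1+FOXA2- progeny. In bulk libraries such as these, fewer cells of a type and less RNA per cell cannot be told apart.

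Of 22 neural progenitor genes tested 0 were called. In all 14 had a negative and 8 a positive log2 fold change, with a median of -0.71, and 5 had an unadjusted p under 0.05, all of them lower. Nes, the intermediate filament nestin, had 10631, 7428 and 10473 normalized counts against 15874, 22360 and 12291 (-0.89, SE 0.26, adjusted p = 0.284). Pax6, a homeobox factor of neural progenitors, was low in both groups, at 72.3, 197 and 257 against 317, 269 and 301 (-0.80, SE 0.69, adjusted p = 0.804). Sox9, a factor of neural stem cells and neural crest, was high in both groups, at 4007, 3989 and 3292 against 3197, 2683 and 1906 (0.47, SE 0.26, adjusted p = 0.609). Meis2, a homeobox cofactor that RA induces, overlapped at 7166, 18250 and 15248 against 18903, 30415 and 17332. Cpe, Id3 and S100a6, further markers named by the study, overlapped as well, with log2 fold changes of -0.87 (SE 0.50), 0.40 (SE 0.80) and -0.16 (SE 0.36). The nuclear receptor gene Nr2f1 had a log2 fold change of -1.85 (SE 0.47, adjusted p = 0.195) and was called with the block (adjusted p = 0.0357). A list of 7 neuroectoderm markers that the study names had a median of -0.77, with 5 negative, 2 positive and 0 called, and they too were chosen on these samples.

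Markers of neurons, ventral neural tube and notochord gave no calls. Of 22 neuronal genes tested, 14 had a positive and 8 a negative log2 fold change, from -4.53 to 2.81, with a median of 0.27. The most abundant, Gap43 and Nefm, went against most of the list, with lower levels in Sox1+FOXA2+ progeny. Gap43, which encodes a growth cone protein, had 415, 455 and 725 normalized counts against 2609, 2822 and 2281 (adjusted p = 0.579). Nefm, which encodes a neurofilament, had 452, 706 and 734 against 2135, 1784 and 1758 (adjusted p = 0.419). Nkx2-2, a marker of the p3 domain next to the floor plate, had 0 counts in 5 of the 6 libraries and 6.15 normalized counts in Sox1+FOXA2- replicate 3, with 51.3% of its exon bases inside another gene. Of 12 genes of Hedgehog signalling and the ventral neural tube that were tested, 0 were called. In all 9 had a positive and 3 a negative log2 fold change, from -1.44 to 5.30. Gli3, the most abundant, had 15555, 10783 and 9743 against 10304, 13530 and 8356, which overlap. Gli2, the next most abundant and the most negative, had 605, 915 and 702 against 1399, 2426 and 1949. It was lower without overlap (log2 fold change -1.44, SE 0.61, adjusted p = 0.507).

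All 24 cell cycle genes had negative log2 fold changes, with a median of -0.46, while with DESeq2's size factors in edgeR 2 of them were positive, with the block 1, and without single libraries up to 6. Cdkn1c alone was called. The negative members were both promoters and inhibitors of division, since Ccnd1 and Ccnd2, the G1 cyclins D1 and D2, stood at -1.31 (SE 0.43, adjusted p = 0.352) and -1.58 (SE 0.33, adjusted p = 0.0937), and Ccnd2 was called with the block (adjusted p = 0.0362). Mki67, the proliferation marker Ki-67, was about equal, at 15391, 12079 and 13446 against 8010, 19276 and 12629. Of 16 cholesterol and fatty acid synthesis genes, 12 were negative with a median of -0.31. Scd2, a stearoyl-CoA desaturase, had 7628, 8332 and 9511 against 23134, 27262 and 15334 (-1.43, SE 0.28, adjusted p = 0.0662).

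In all, 7 genes of the 28 lists were called, and 22 lists held no called gene, with medians between -0.79 and 1.03. The median of 1.03 belonged to the list of endothelium and blood, in which 8 of 10 tested genes were positive, among them the receptor genes Flt1 and Tek at 1.03 (SE 0.34) and 1.04 (SE 0.40), both with adjusted p-values over 0.3. The defining member Kdr was at -1.31. Hox genes had a median of -0.15 with 8 of 18 positive, and pluripotency genes of -0.35 with 9 of 19 positive, a median that was -0.59 when replicate 1 of Sox1+FOXA2- was left out and 0.90 when its replicate 3 was.

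**Figure D3:**
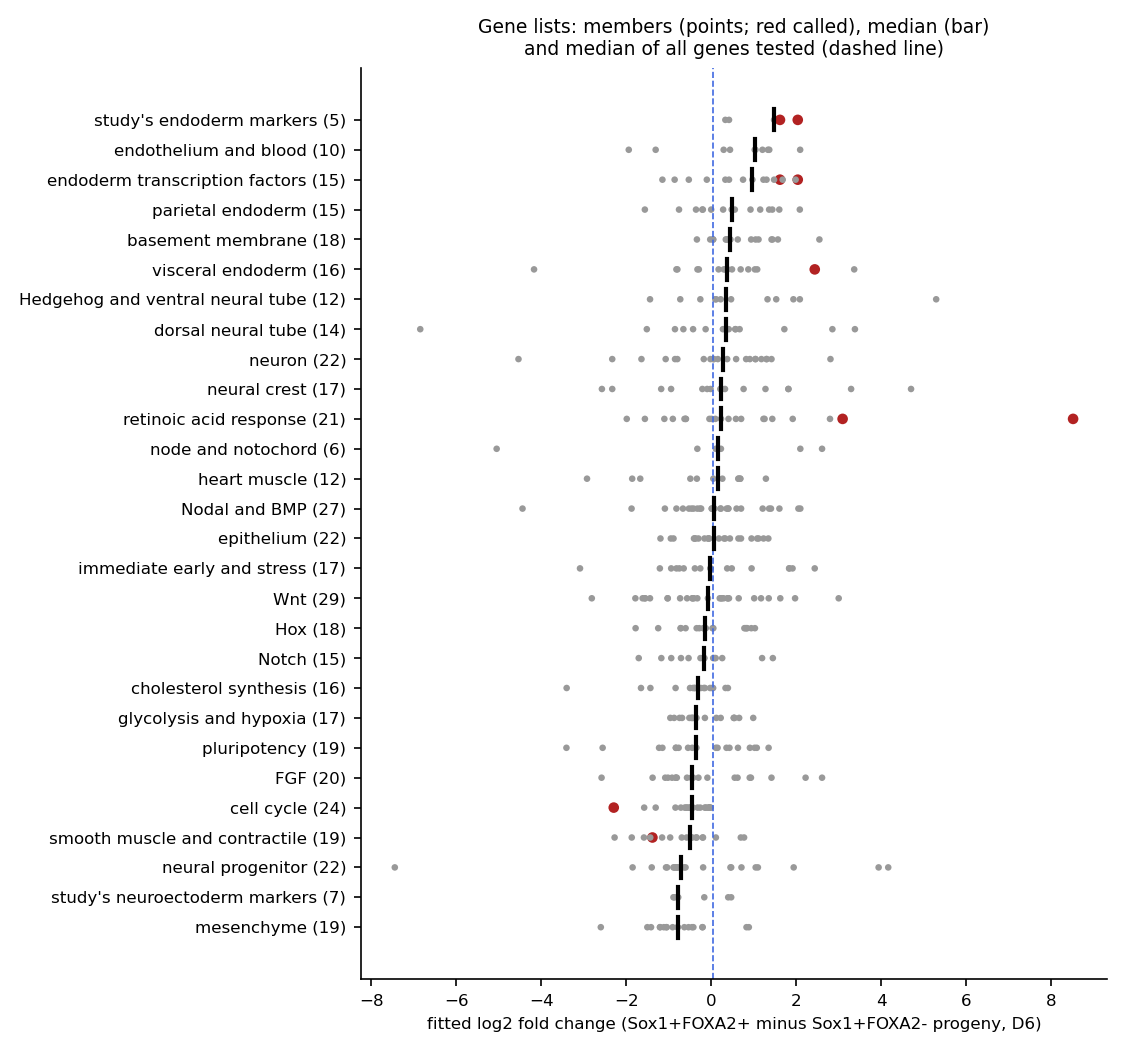
Fitted log2 fold change of the tested members of 28 gene lists in D6 progeny, Sox1+FOXA2+ minus Sox1+FOXA2-, with called members in red, the median of each list as a bar and the number tested in parentheses. The medians of the endoderm lists lie to the right and those of the mesenchyme, neural progenitor, contractile and cell cycle lists to the left of the median of all genes tested (dashed line).

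The progeny of Sox1-FOXA2+ cells, measured on the same day, put these levels on a scale. Both comparisons share libraries, so that the values are given side by side as a description. Gata4 had a mean of 916 ± 229 normalized counts in Sox1+FOXA2-, 3949 ± 1289 in Sox1+FOXA2+ and 21779 ± 6960 in Sox1-FOXA2+ progeny (SD, n = 3), so that the Sox1+FOXA2+ mean lay 14.5% of the way from the first to the last. For Foxa2, with 225 ± 34.5, 714 ± 183 and 3065 ± 226, it lay at 17.2%, and for Cd9, with 839 ± 104, 4128 ± 844 and 15546 ± 2101, at 22.4%. Among matrix genes it lay at 11.6% for Col4a1 and 8.55% for Sparc, and for the adaptor Dab2 at 3.02%.

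For other genes the mean lay further along the same scale, and no test of a difference between these positions was made. The Sox1+FOXA2+ mean of Lrp2 lay at 37.3%, that of Klb at 40.1%, that of Atp1b1 at 55.8%, that of Cubn at 58.8% and that of Me1 at 82.0%. Cyp26a1, with 621 ± 94.1, 5575 ± 4556 and 9819 ± 1269 normalized counts, lay at 53.9%. Cyp26c1 passed the end of the scale at 144%, with a mean of 532 ± 398 in Sox1+FOXA2+ and 371 ± 48.9 in Sox1-FOXA2+ progeny, a difference within the spread between replicates (log2 fold change 0.49, adjusted p = 0.780).

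Nupr1 and Nek10 were highest in the Sox1+FOXA2+ progeny among the progeny of D6. Nupr1, a small chromatin protein induced by cell stress, had 617, 1514 and 2534 normalized counts there, 191, 61.1 and 98.4 in Sox1+FOXA2- and 31.0, 36.0 and 57.5 in Sox1-FOXA2+ progeny. It was called against Sox1+FOXA2- (log2 fold change 3.68, SE 0.57, adjusted p = 0.0140, and 0.0966 without Sox1+FOXA2- replicate 3) and against Sox1-FOXA2+ progeny (5.23, SE 0.61, adjusted p = 0.000239). Nek10, a kinase of the NIMA family, had 1650, 1972 and 1136 against 425, 211 and 172 and against 134, 108 and 166 (2.48, SE 0.41, adjusted p = 0.0196, and 3.53, SE 0.43, adjusted p = 0.000283). Sgk1, a kinase induced by serum and glucocorticoids, had 2053, 1948 and 2317 against 706, 318 and 689, with a mean of 1230 ± 196 in Sox1-FOXA2+ progeny. Its call against Sox1+FOXA2- progeny (1.84, SE 0.31, adjusted p = 0.0234) was not matched by a call against Sox1-FOXA2+ progeny (0.77, adjusted p = 0.204). In the list of immediate early and stress genes, 0 of 17 were called, 7 were positive and 10 negative.

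The 4 genes called lower had different places. Cdkn1c and Lbh had means of 936 ± 459.8 and 994 ± 652 in Sox1+FOXA2+ progeny, close to the 625 ± 244 and 805 ± 172 of Sox1-FOXA2+ progeny (adjusted p = 0.452 and 0.797). Myl9 lay between, with 416 ± 18.6 in Sox1-FOXA2+ progeny and a call in that comparison too (2.06, adjusted p = 0.000239). F2r was lowest in Sox1+FOXA2+ progeny, at 1282 ± 278 against 2629 ± 617 in Sox1-FOXA2+ progeny (-1.05, adjusted p = 0.0483).

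**Figure D4:**
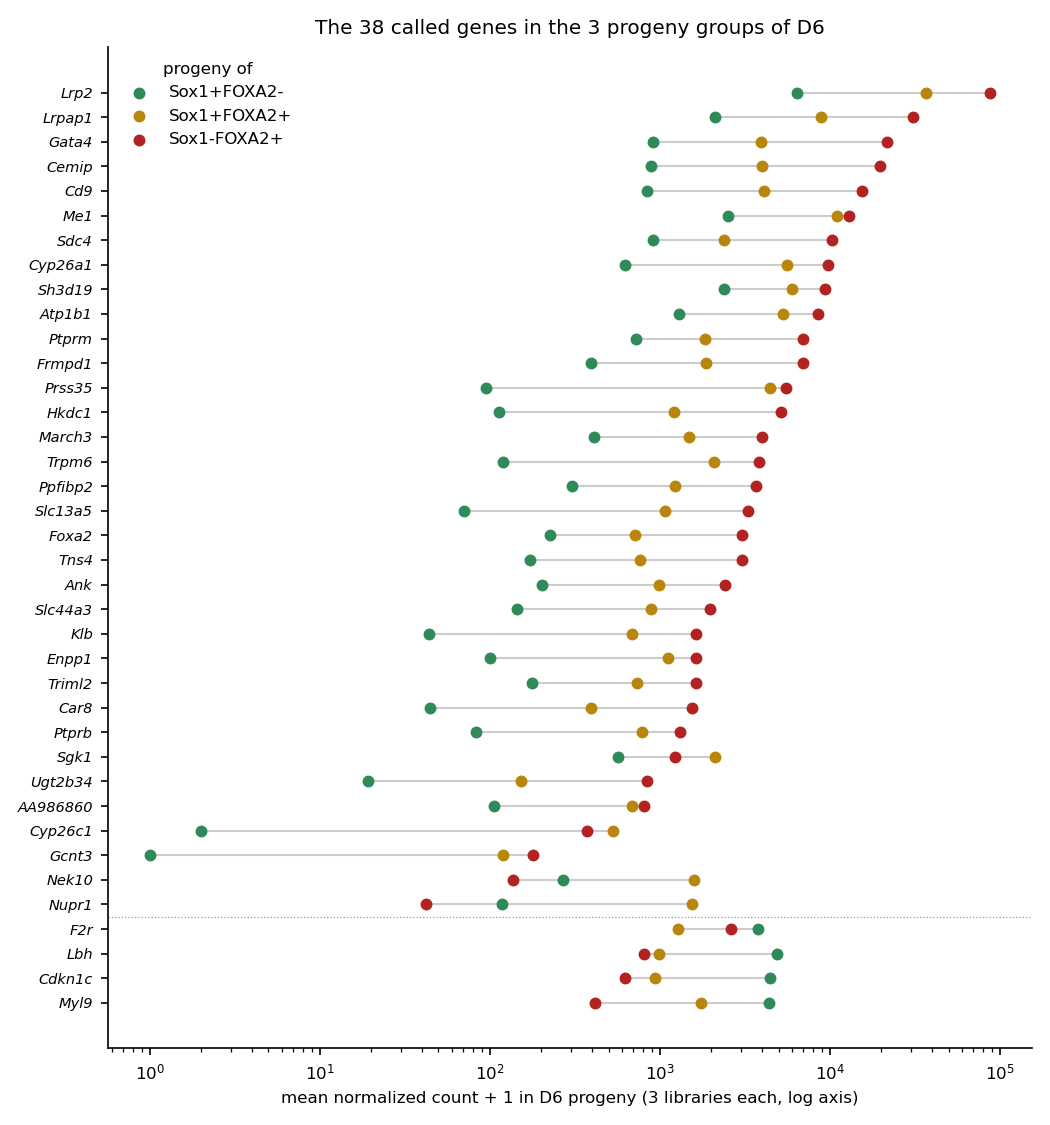
Mean normalized count plus 1 (log axis, 3 libraries each) of the 38 called genes in D6 progeny of Sox1+FOXA2- (green), Sox1+FOXA2+ (ochre) and Sox1-FOXA2+ (red) cells, with the 4 genes called lower under the dotted line. Sox1+FOXA2+ progeny stand between the other progeny for most genes, close to Sox1-FOXA2+ for Me1 and Prss35, and outside both for Nupr1, Nek10, Sgk1, Cyp26c1 and F2r.

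The same contrast at D4, 2 days earlier and in other libraries, gave 1 called gene of 20697 (0.00483%). This was Lama1, named after its value was seen, at a log2 fold change of 2.20 (SE 0.30, adjusted p = 0.0113). With the replicate block, 18 genes were called at D4. Of the 34 genes called higher at D6, 32 had a positive log2 fold change at D4, with a median of 1.16, where 53.4% of all genes were positive with a median of 0.05, and 13 of the 34 were higher at an unadjusted p under 0.05 (2.94% of all genes). Gata4 had 869, 1438 and 574 normalized counts in D4 progeny of Sox1+FOXA2+ cells against 77.6, 262 and 92.5, without overlap but not called (adjusted p = 0.159). Cyp26a1 had 1380, 3841 and 2565 against 69.8, 293 and 853 (2.55, SE 0.83, adjusted p = 0.998), also without overlap. Cyp26c1, by contrast, overlapped at D4, at 163, 363 and 237 against 225, 0 and 21.1 (1.79, SE 1.27), and was not called. Atp1b1 and Trpm6 also overlapped, with log2 fold changes of 0.33 (SE 0.30) and 0.27 (SE 0.75). Foxa2 overlapped at D4 as well, at 326, 1150 and 264 against 403, 27.7 and 170 (1.61, SE 0.81), and was not called. All 4 genes called lower at D6 were negative at D4, from -2.09 for Lbh to -0.15 for F2r.

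The change of the difference from D4 to D6 was tested as an interaction over the 18 progeny libraries, and 0 of 24025 genes were called (0% called, 844 genes at an unadjusted p under 0.05). No gene can therefore be said to have gained or lost its difference between the days. With DESeq2's Wald test 13 genes were called.

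Cells of the same gates that were sorted directly at D6 gave 12 called genes of 24203 (0.0496%), all of them higher in Sox1+FOXA2+ cells. These cells were gated on their reporters at D6 and stayed in N2B27, so that replating, serum and the time of the gate cannot be told apart in a comparison with the progeny. Foxa2 had 0, 728 and 76.6 normalized counts in sorted Sox1+FOXA2+ cells against 131, 124 and 20.3 in sorted Sox1+FOXA2- cells. These overlap and were not called (log2 fold change 1.63, SE 1.54), so that Foxa2 RNA did not separate the gates at D6. Of the 34 genes, 31 had a positive log2 fold change there, with a median of 1.57 (49.9% of all genes positive), and 12 were higher at an unadjusted p under 0.05 (1.84% of all genes). Lrpap1 and Atp1b1 were called in both sets, with log2 fold changes of 3.54 (SE 0.53) and 3.69 (SE 0.65) in the sorted cells. With the replicate block 8 genes were called in the sorted cells, 6 of them among the 12, and Lrpap1, Atp1b1, Dab2 and Sparc were not (adjusted p = 0.161, 0.220, 0.334 and 0.589). Gata6, Dab2 and Sparc were called in sorted cells, at 3.64 (SE 0.54), 3.98 (SE 0.59) and 4.25 (SE 0.65), but stood at 0.42 (SE 0.31), 0.18 (SE 0.20) and 0.45 (SE 0.35) in progeny, where they were not called. Whether the differences between these arms exceed their error was not tested. None of the 4 genes that were lower in Sox1+FOXA2+ progeny was lower in the sorted cells, where their log2 fold changes ran from 1.21 to 1.75 without a call.

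**Figure D5:**
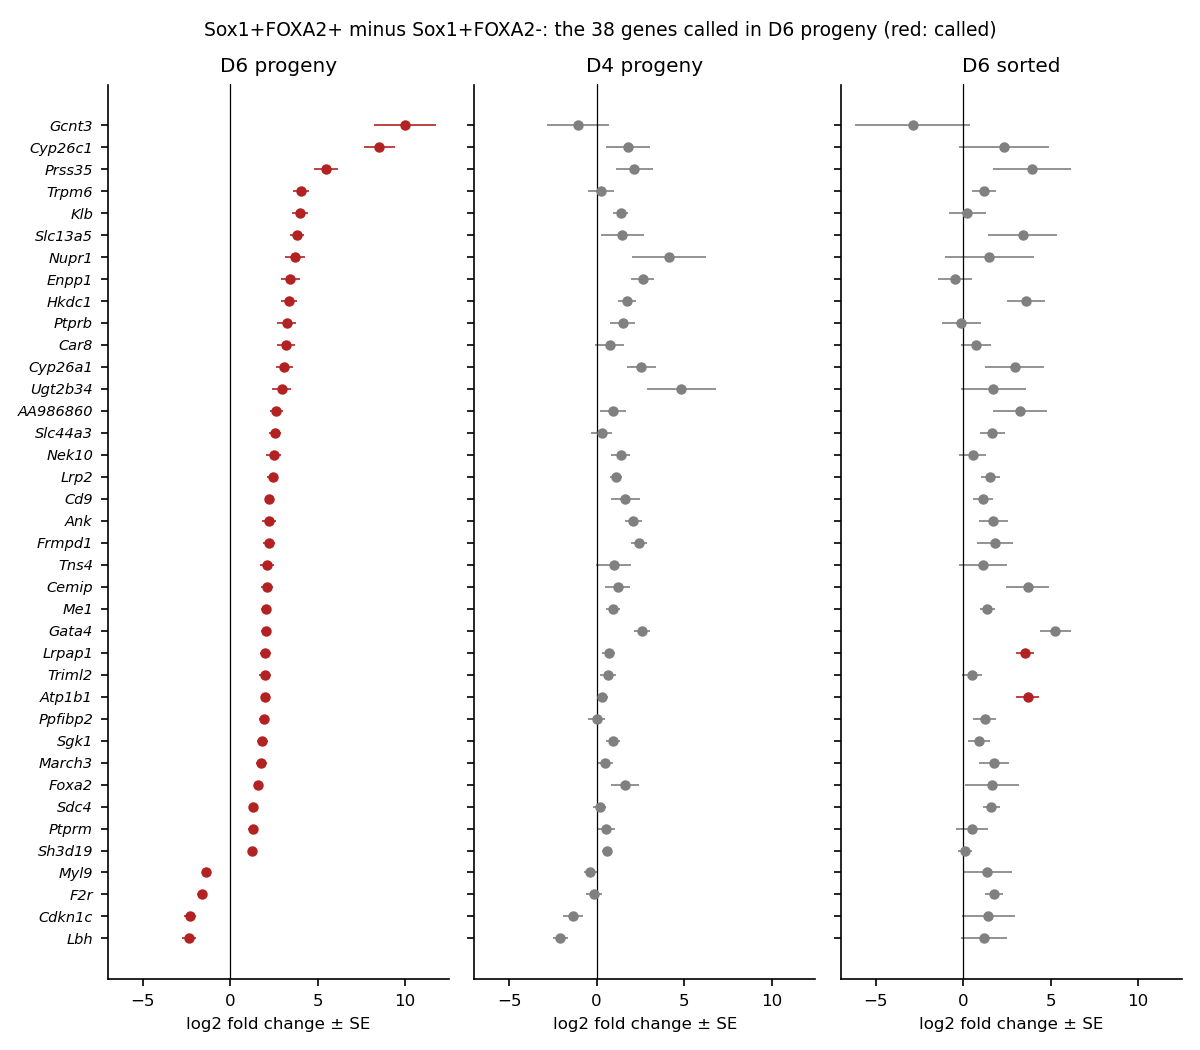
Log2 fold change ± SE, Sox1+FOXA2+ minus Sox1+FOXA2-, of the 38 genes called in D6 progeny (left), in D4 progeny (middle) and in cells sorted at D6 (right), with called values in red. Most of the 34 upper genes lie right of 0 in each panel, with wide errors for Gcnt3, Nupr1 and Ugt2b34 outside the D6 progeny, and the 4 lower genes lie left of 0 in the progeny panels and right of 0 in the sorted cells.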

How the data were processed

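RNA-seq libraries of 57 samples, 3 replicates of each of 19 groups, were read from the table of raw counts that the authors deposited. Per the study's methods, libraries of about 500 cells were made with the SMART-Seq Stranded Kit and sequenced on a NovaSeq6000, and reads were aligned with STAR and assigned by featureCounts to genes of GENCODE M21 (GRCm38) by the authors. Tool versions are not given in the sources used here. The counts were not normalized. Of the protein-coding genes wholly inside another gene, on either strand, 100% have 0 counts in all libraries (reads may have been dropped where genes share a span, but the counting options are not given in the sources used here). Of 55542 lines, 92 carry no gene name and 0 counts. They were dropped, which leaves 55450 genes.

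The 9 D6 progeny libraries were fitted with edgeR 4.0.16 (R 4.3.3; TMM; filterByExpr, count at least 10 and total at least 15; robust quasi-likelihood fit; prior count 0.125; two-sided), with Benjamini-Hochberg adjustment. The robust option, the comparison with Sox1-FOXA2+ progeny as reference and the fits of the added alternatives were chosen after seeing the data. The D4 progeny, the D6 sorted cells and the interaction were fitted in the same way. SE is an approximation, the absolute log2 fold change divided by the square root of the quasi-likelihood F statistic. Like the fold change, it depends on the prior count where 1 group has few or no counts. Normalized counts are counts divided by DESeq2 1.42.0 size factors, and permutation tests used log2 of these plus 1. The test was checked on simulated counts.

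Members, lists and tests were chosen with earlier results of these data known. Named genes were drawn, not all of them printed, from the study's markers, the 12 of smallest p in each direction with a gene symbol, the 8 of largest fold change in each direction among called genes with at least 100 normalized counts, called members of 28 lists, and the 2 most abundant members of lists with fewer than 2 calls. Further list members and called genes were named after their values were seen. Deviations from the group mean of libraries of 1 number, over 5000 genes, correlated at 0.124 to 0.440 in D6 progeny and at 0.390 to 0.591 in D4 progeny. All were over the 0.1 set as the rule, so that replicate numbers were taken to pair the libraries. For Sox1+FOXA2+ replicate 1 at D6 the 0.124 stood against 0.074 with a Sox1+FOXA2- library of another number. The sample titles do not say whether the numbers link libraries. The promoters of 31 of the 38 called genes were in the RefSeq table. Of the 57 libraries, totals ran from 10170632 to 81845651 counts. Intervals cover counting error only. Annotation used Python 3.11.15, and figures matplotlib 3.10.9.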

Additional observations from a re-analysis of the deposited data

How the results depend on the processing

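Among the 101 named genes that were tested, none reversed its direction of call under any of the 13 alternatives in D6 progeny. The number of called genes there was 38, and it was 365 with DESeq2's Wald test, 554 with no filter on low counts, 59 with only the 6 libraries of both groups, 0 with all 57 libraries in 1 fit, and 15 to 105 without single libraries. DESeq2's size factors in edgeR gave 40, the fit without robust estimation 32 and the replicate block 44. In D4 progeny 1 gene was called, and 34 with DESeq2, 70 with no filter, 18 with the replicate block, 0 without robust estimation (954 at an unadjusted p under 0.05) and 1 to 13 without single libraries. For the change from D4 to D6, 0 genes were called, and 13 with DESeq2 and 31 with no filter. In cells sorted at D6 it was 12, and 24 without robust estimation and 8 with the replicate block, which kept 6 of the 12. The causes were not tested. With TMM-scaled CPM in place of normalized counts, each ratio of group levels moved by less than the spread between replicates. With the block 29 of the 38 genes stayed called and 15 others were added. With 3 libraries a group and 10474804 counts in the shallowest, a missing call does not show that levels were alike.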
